A study of Mus musculus with 8 samples.

Results

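Myeloid cells read their surroundings through a small set of growth factor receptors, and 9 genes that encode them were followed here in mouse acute myeloid leukemia (AML): Flt3, Kit, Csf1r, Csf2ra, Csf2rb, Csf2rb2, Csf3r, Il3ra and Il6ra. The genes were picked by name, with earlier results of these data known, and each of the 9 has a row among the 12823 rows of the count table. All 8 libraries came from leukemia cells driven by MLL-AF9, a fusion of the KMT2A and MLLT3 genes, which had been put into mouse bone marrow progenitors with an MSCV retrovirus that also carries a green fluorescent protein (GFP) gene under a pgk promoter. The 4 new AML libraries hold newly generated leukemia cells, grown in recipient mice that had received sublethal irradiation. The 4 aggressive AML libraries hold cells obtained after 5 serial transplantations, which the study carried out in non-irradiated recipients. In both groups the hosts were C57BL/6 mice, male by the study's description of these samples and 8 to 12 weeks old by its methods, and GFP+ cells were sorted from the bone marrow before RNA was extracted. The sources do not say how many transduced clones a group holds, nor whether each replicate is 1 mouse or a pool, so p-values measure the spread between these samples only. The comparison asked how the set of receptors that the cells transcribe differed between the new AML and the aggressive AML libraries.

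The receptors fall into 3 families by structure. FLT3, KIT and the macrophage colony-stimulating factor (M-CSF) receptor CSF1R are tyrosine kinases that pair with themselves when they bind FLT3 ligand, stem cell factor, and M-CSF or IL-34. KIT and FLT3 are typical of progenitors, while CSF1R is the receptor on which monocytes and macrophages depend. The remaining receptors have no kinase of their own and signal through JAK kinases and STAT factors. CSF3R, the receptor for granulocyte colony-stimulating factor (G-CSF), pairs with itself and drives neutrophil production, and IL6RA binds interleukin-6 and signals through the shared chain gp130. CSF2RA binds granulocyte-macrophage colony-stimulating factor (GM-CSF) and IL3RA binds interleukin-3, each by joining a beta chain. Mice have a common beta chain, encoded by Csf2rb, and a second one that serves interleukin-3 alone, encoded by Csf2rb2.

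Total counts were between 7805544 and 9697777 per library, and the receptor genes had between 187 and 6987 counts in a library, so that none of them lies near the limit of detection. Levels are given as CPM, the count of a gene scaled by the total of its library, with TMM scaling factors between 0.986 and 1.01 applied. The 4 Y-linked genes Ddx3y, Eif2s3y, Kdm5d and Uty together had between 2315 and 2574 counts in each new AML library and 0 counts in each aggressive AML library. Serial passage, host irradiation, loss of the Y chromosome and an origin from other cells therefore cannot be told apart in any group difference. Neither can a sequencing batch, for which the labels give no record. The sorted cells carried the defining genes of myeloid progenitors in both groups: Mpo, the peroxidase of primary granules, was at 2399.7 and 2092.2 CPM and Elane, neutrophil elastase, at 803.0 and 1154.1 CPM in new and aggressive AML. Of 8 listed T cell genes 6, among them Cd3e and Cd3d, have no row in the table, from which the authors left out genes of low expression.

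Of the 9 receptor genes, 7 differed between the groups at an adjusted p under 0.05, against 18.4% of the 12494 genes tested. Kit was the only one that rose in this fit, where 8.15% of all genes tested rose, and 6 fell, where 10.2% of all genes tested did: Csf1r, Csf3r, Csf2rb2, Il6ra, Csf2ra and Csf2rb. Flt3 and Il3ra did not pass the threshold, although their unadjusted p-values were under 0.05, as were those of all 9 genes and of 4070 of all genes tested. All 9 passed the filter on low values. The same 7 genes had values that did not overlap between the groups. This was so for 21.8% of all genes tested, split into 9.76% with higher and 12% with lower values in aggressive AML. The median log2 fold change was -0.43 over the 9 receptor genes and 0.00 over all genes tested. Leaving out new AML replicate 2 changed the number of all genes called from 2296 to 1466 and that of receptor genes from 7 to 6. Since RNA was taken from bulk sorted cells, fewer cells that carry a receptor and less RNA per cell cannot be told apart.

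**Figure D1:**
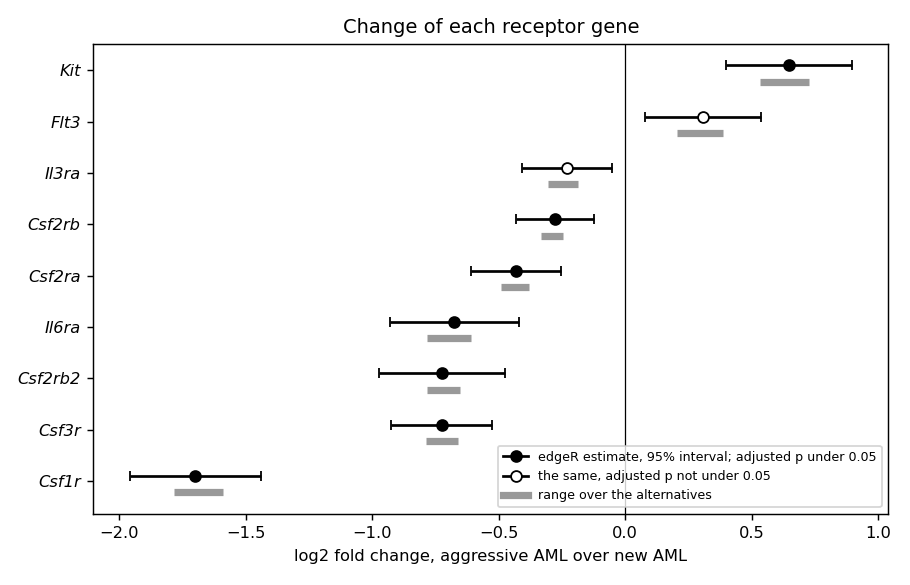
Change of each receptor gene on the log2 scale (x axis, aggressive AML over new AML), with the edgeR estimate as a circle, its 95% interval as a thin line and the range over the alternative settings as a grey bar. Kit lies at 0.65 and Csf1r at -1.70, and the open circles of Flt3 and Il3ra mark the 2 genes with adjusted p-values of 0.0611 and 0.0664.

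The promoters of the genes that moved were compared by sequence, to show what the gene that rose and genes that fell have in common upstream. RefSeq promoters of GRCm38.p6 were found for 7 of the 9 genes, but not for Csf1r and Csf2rb, which both fell. The 250 bases before each start site were searched on both strands for the core of ETS factor sites with its flank (AGGAAG), a motif of C/EBP factors (TTGCNNAA), a motif of RUNX factors (TGTGGT) and a motif of GATA factors (AGATAA). The stretches below, written 5′ to 3′ on the strand of the gene, end at the first base before the GENCODE gene. They are shown for Kit, the gene that rose, and for 3 that fell, with matches in capitals (CTTCCT and TTATCT are AGGAAG and AGATAA read on the other strand). No match overlaps another in these stretches. Kit lies on the plus strand at chr5:75574737-75574915, Csf3r on the plus strand at chr4:126024409-126024549, Il6ra on the minus strand at chr3:89913197-89913446 and Csf2rb2 on the minus strand at chr15:78305722-78305971.
Kit: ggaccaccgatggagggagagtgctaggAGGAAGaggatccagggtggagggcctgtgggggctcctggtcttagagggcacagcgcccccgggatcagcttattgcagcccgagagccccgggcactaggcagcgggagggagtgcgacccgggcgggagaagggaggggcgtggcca
Csf3r: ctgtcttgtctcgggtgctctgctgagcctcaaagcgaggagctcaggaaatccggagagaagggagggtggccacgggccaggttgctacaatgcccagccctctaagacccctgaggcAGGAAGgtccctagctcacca
Il6ra: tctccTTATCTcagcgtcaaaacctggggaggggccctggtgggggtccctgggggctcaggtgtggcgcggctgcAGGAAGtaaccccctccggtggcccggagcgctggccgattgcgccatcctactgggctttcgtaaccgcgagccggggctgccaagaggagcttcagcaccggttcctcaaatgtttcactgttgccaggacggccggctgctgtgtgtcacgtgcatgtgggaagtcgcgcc
Csf2rb2: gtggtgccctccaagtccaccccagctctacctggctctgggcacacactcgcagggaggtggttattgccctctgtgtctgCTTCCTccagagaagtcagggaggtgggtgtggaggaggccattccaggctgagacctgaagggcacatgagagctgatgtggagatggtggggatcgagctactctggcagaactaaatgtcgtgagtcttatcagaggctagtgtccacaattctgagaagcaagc
AGGAAG was found in 6 of the 7 promoters, against 29.2% of all 27025 promoters in the table. Csf3r held 4 matches, of which 1 lies in the stretch shown, Csf2ra held 2, and Kit, Csf2rb2, Il3ra and Il6ra held 1 each. The other Csf3r matches and that of Il3ra lie inside the GENCODE gene, and both Csf2ra matches reach into it. The share over all promoters was taken over the same 250 bases, whether or not they reach into a gene. Kit has 2 promoter entries, of which the first was searched. The Flt3 promoter held none. TTGCNNAA was found in Il3ra alone (9.55% of all promoters), AGATAA in Il6ra alone (10.3%) and TGTGGT in none of the 7 (14.2%). Kit, which rose, and the 4 falling genes with a promoter entry all held at least 1 AGGAAG, though Csf2ra held none wholly before the GENCODE gene. The Kit promoter was rich in G and C (70.8% of its 250 bases, with 17 CpG pairs). Of the genes that fell, Il6ra had 65.2% with 18 pairs and Csf2ra 64.8% with 17. Csf2rb2, which also fell, was the lowest of the 7 (56.4%, with 3). Csf3r, which fell, and Flt3 lay between Csf2rb2 and Csf2ra in both measures. Il3ra, which did not pass the threshold, lay above Kit (72.4%, with 27). Kit thus lay within the range of the falling genes in CpG pairs, though above them in G and C. The median over all promoters was 52.0% with 6 CpG pairs, and all 7 were above it in G and C. The motif matches are letters in a window and no measure of binding.

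Csf1r, the M-CSF receptor gene of monocytes and macrophages (mm10, chr18:61100598-61132149), showed the largest change of the 9. Its level was 151.6, 173.6, 137.1 and 202.5 CPM in new AML replicates 1 to 4. In aggressive AML it was 50.8, 42.3, 55.0 and 56.7 CPM. Every aggressive AML library was thus below the lowest new AML library by more than the whole spread of its own group. The group means were 166.2 ± 28.4 and 51.2 ± 6.42 CPM (SD over 4 libraries), so that 30.8% of the new AML level was left. The log2 fold change was -1.70 (SE 0.12, adjusted p = 3.76e-07, edgeR), and the gene ranked at 157 among all genes tested by the size of its fall. Over all 17 alternative settings it stayed between -1.78 and -1.59. The exons of Csf1r share 873 bases, or 15.1% of their length, with Hmgxb3 on the other strand, and the strand setting of the counting was not stated. Hmgxb3 itself was at 58.8 and 49.7 CPM (log2 fold change -0.24, adjusted p = 0.238).

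Kit, the stem cell factor receptor gene (chr5:75574916-75656722), moved the other way. New AML replicates 1 to 4 were at 108.8, 111.1, 79.5 and 122.4 CPM, and aggressive AML replicates 1 to 4 at 174.2, 138.9, 172.6 and 174.6 CPM. The groups did not overlap, but aggressive AML replicate 2 stood apart from the other 3 of its group, which lay between 172.6 and 174.6 CPM. The mean rose from 105.5 ± 18.3 to 165.1 ± 17.5 CPM (SD, n = 4), a fold of 1.57 with a 95% interval from 1.32 to 1.86. The log2 fold change was 0.65 (SE 0.12, adjusted p = 0.0014, edgeR) and stayed between 0.53 and 0.73 under all 17 alternatives.

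Flt3, the FLT3 ligand receptor gene (chr5:147330741-147400489), had the highest CPM of the 9 in both groups. It was at 618.9, 594.8, 459.1 and 659.1 CPM in new AML replicates 1 to 4 and at 603.4, 716.0, 769.0 and 795.3 CPM in aggressive AML replicates 1 to 4. The groups overlapped, since aggressive AML replicate 1 lay below 2 of the new AML libraries. The means were 583.0 ± 86.7 and 720.9 ± 85.0 CPM (SD, n = 4), and the difference of 0.31 on the log2 scale (95% interval 0.08 to 0.54) missed the threshold (adjusted p = 0.0611, edgeR). It passed without new AML replicate 4 (0.37, adjusted p = 0.0472), without aggressive AML replicate 1 (0.38, adjusted p = 0.0283), with DESeq2 (0.31, adjusted p = 0.0378) and with limma and array weights (0.26, adjusted p = 0.0481). The direction was the same in all 17 alternatives, with adjusted p-values from 0.0283 to 0.136.

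**Figure D2:**
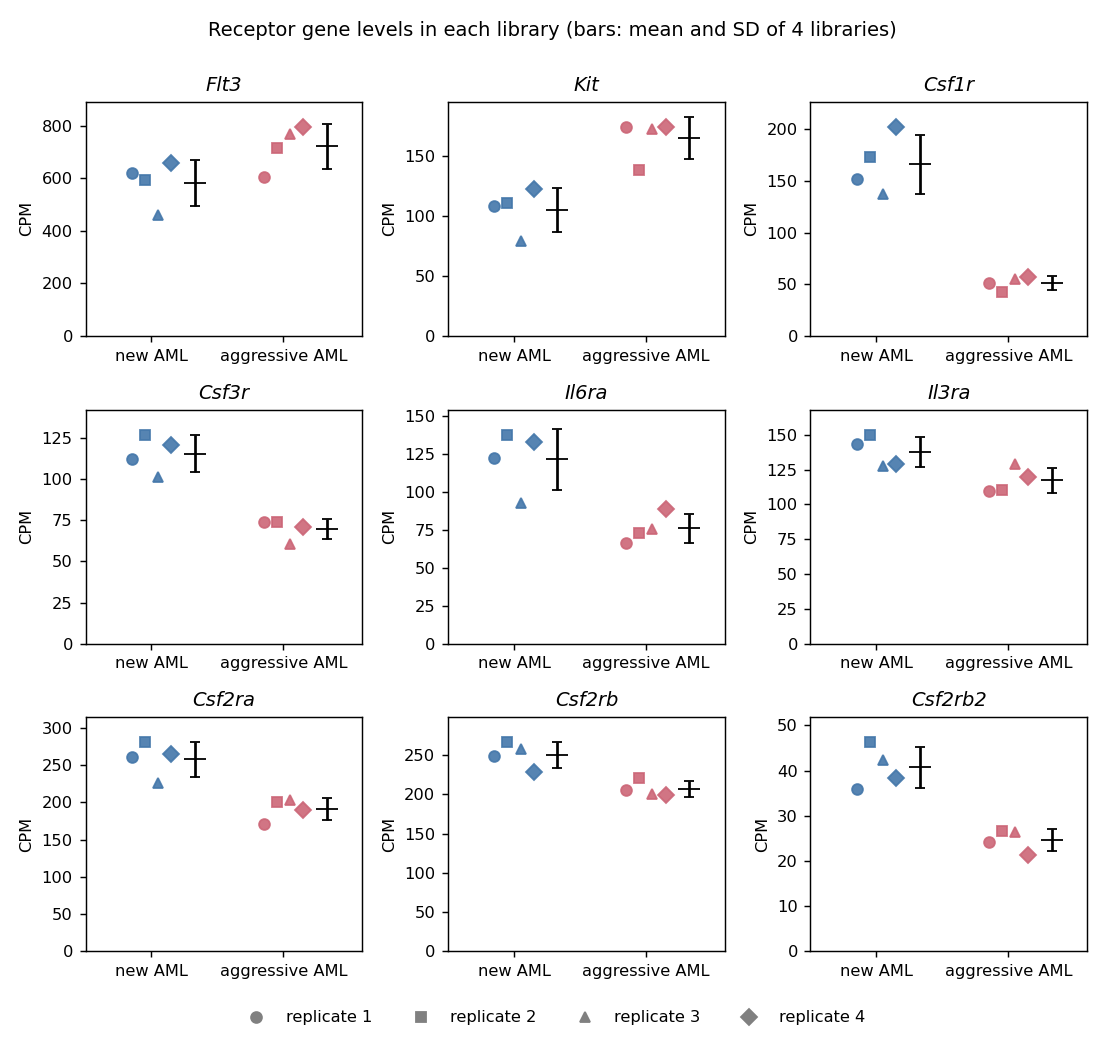
Level of each receptor gene (y axis, CPM from 0, 1 panel per gene) in the 4 new AML and 4 aggressive AML libraries, with the replicate number as the marker shape and the mean and SD beside each group. The groups do not overlap in the panels of Kit, Csf1r, Csf3r, Il6ra, Csf2ra, Csf2rb and Csf2rb2, and they do in those of Flt3 and Il3ra.

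Csf3r and Il6ra, whose related proteins bind G-CSF and interleukin-6, both fell. Csf3r (chr4:126024550-126044440) was at 112.6, 127.2, 101.3 and 121.1 CPM in new AML and at 73.9, 73.9, 60.7 and 70.8 CPM in aggressive AML. Its mean went from 115.6 ± 11.2 to 69.8 ± 6.26 CPM (SD, n = 4), that is by -0.73 on the log2 scale (SE 0.09, adjusted p = 8.30e-05, edgeR). Il6ra (chr3:89864059-89913196) was at 122.0, 137.5, 92.7 and 132.3 CPM in new AML and at 66.4, 73.1, 75.2 and 88.6 CPM in aggressive AML. The 2 groups came close for this gene, since new AML replicate 3 was only slightly above aggressive AML replicate 4. The mean of Il6ra went from 121.1 ± 20.0 to 75.8 ± 9.29 CPM, by -0.68 on the log2 scale (SE 0.12, adjusted p = 0.00115). Both genes kept the call in all 17 alternatives, from -0.79 to -0.66 for Csf3r and from -0.79 to -0.61 for Il6ra. Il6st, which encodes the gp130 partner of IL6RA, was named after its values were seen. It fell as well, from 96.7 ± 11.2 to 41.7 ± 4.02 CPM (log2 fold change -1.21, SE 0.10, adjusted p = 1.53e-06), and kept the call in all 17 alternatives.

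Of the 2 alpha chains, which give the receptors for GM-CSF and interleukin-3 their specificity, that of GM-CSF fell and that of interleukin-3 did not pass the threshold. Csf2ra (chr19:61223957-61228429) was at 260.5, 280.6, 225.5 and 265.4 CPM in new AML and at 171.2, 200.2, 203.8 and 189.6 CPM in aggressive AML, with no overlap. It fell from 258.0 ± 23.3 to 191.2 ± 14.6 CPM (SD, n = 4), by -0.43 on the log2 scale (SE 0.08, adjusted p = 0.00225, edgeR), and kept the call in all 17 alternatives. Il3ra (chr14:14346275-14356011) was at 143.2, 150.1, 127.6 and 129.0 CPM in new AML and at 109.9, 110.3, 128.7 and 119.6 CPM in aggressive AML. Only aggressive AML replicate 3 reached into the range of the new AML libraries. The means of Il3ra were 137.5 ± 11.0 and 117.1 ± 8.93 CPM, with a difference of -0.23 on the log2 scale (95% interval -0.41 to -0.05) that missed the threshold (adjusted p = 0.0664). It passed without new AML replicate 3 (-0.27, adjusted p = 0.0478), without aggressive AML replicate 3 (-0.28, adjusted p = 0.0317) and with limma and array weights (-0.31, adjusted p = 0.00602). Over the 17 alternatives its adjusted p reached 0.207.

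Both beta chain genes fell. Csf2rb, the common beta chain gene (chr15:78325752-78353847), was at 249.3, 266.6, 257.7 and 228.5 CPM in new AML and at 205.8, 221.2, 200.0 and 199.8 CPM in aggressive AML. Its mean went from 250.5 ± 16.3 to 206.7 ± 10.1 CPM (SD, n = 4), by -0.28 on the log2 scale (SE 0.07, adjusted p = 0.0156, edgeR). This was the smallest of the 7 changes that passed, and it missed the threshold without new AML replicate 2 (-0.25, adjusted p = 0.0675). Csf2rb2 (chr15:78282507-78305721) was at 35.8, 46.3, 42.4 and 38.2 CPM in new AML and at 24.2, 26.5, 26.4 and 21.3 CPM in aggressive AML. Its mean went from 40.7 ± 4.60 to 24.6 ± 2.46 CPM, by -0.72 on the log2 scale (SE 0.12, adjusted p = 0.000541), and it kept the call in all 17 alternatives.

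The values of this pair are uncertain, because the genes lie 20030 bases apart as near copies of each other. Their longest open reading frames, of 2691 and 2637 bases, are 95.2% identical over 2631 aligned bases. Of all stretches of 50 bases, 12.3% of those in Csf2rb transcripts also occur in Csf2rb2 transcripts and 18.4% of those in Csf2rb2 occur in Csf2rb. Reads from such stretches could be counted for either gene or for neither. With the counts of both summed as 1 gene, the log2 fold change was -0.33 (adjusted p = 0.00542). The count of Csf2rb2 over that of Csf2rb was between 0.144 and 0.174 in new AML libraries and between 0.107 and 0.132 in aggressive AML libraries.

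Levels of different genes can be compared only per length, as CPM per kilobase of exon, and by this measure Kit and Csf1r changed places. In new AML, Flt3 led with 94.4 ± 14.0, and its libraries overlapped those of Csf2ra, with 89.9 ± 8.13 (SD, n = 4). Il3ra followed with 46.3 ± 3.70, then Csf2rb with 34.4 ± 2.24, Csf3r with 32.0 ± 3.11 and Csf1r with 28.8 ± 4.93, where each of the last 3 overlapped its neighbour. Il6ra with 14.0 ± 2.32, Kit with 11.8 ± 2.05 and Csf2rb2 with 8.58 ± 0.971 closed the order and also overlapped from one to the next. In aggressive AML, Flt3 stood clear of Csf2ra with 116.7 ± 13.8 against 66.6 ± 5.09. Il3ra with 39.5 ± 3.01 and Csf2rb with 28.4 ± 1.38 kept their places. Kit with 18.5 ± 1.96 then lay beside Csf3r with 19.3 ± 1.74 and overlapped it. Csf1r with 8.87 ± 1.11 and Il6ra with 8.77 ± 1.08 also overlapped, and Csf2rb2 with 5.19 ± 0.519 was again the lowest.

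**Figure D3:**
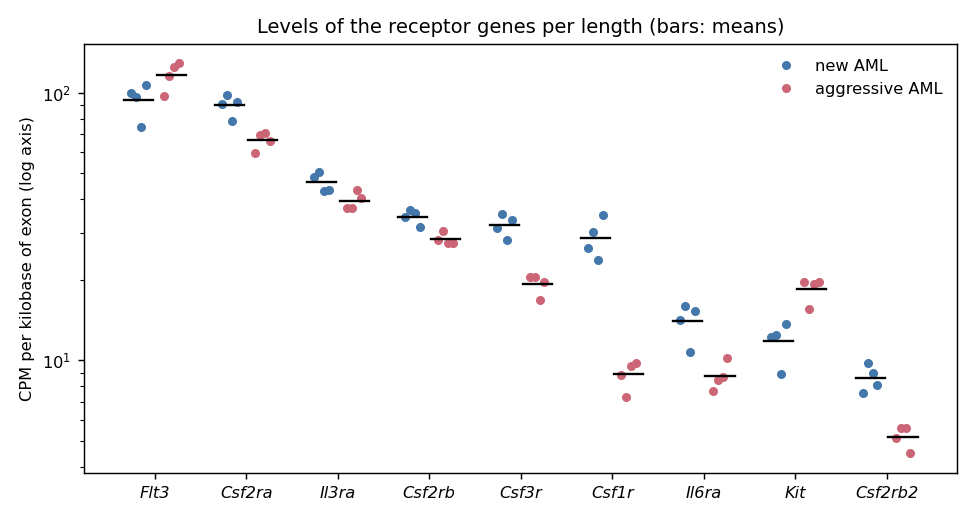
Level of each receptor gene per length (y axis, CPM per kilobase of exon, log axis) in each library, with black bars for the means of the 4 libraries of a group. Kit goes from 11.8 in new AML to 18.5 in aggressive AML and Csf1r from 28.8 to 8.87, so that the order of the pair turned around.

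As a share of the summed per-length level of the 9 genes in a library, Flt3 took 26.1% ± 2.01 in the new and 37.3% ± 2.16 in the aggressive AML libraries (SD, n = 4). Csf2ra took 25.0% ± 0.463 and 21.4% ± 0.954, Csf1r 7.97% ± 0.882 and 2.85% ± 0.333, and Kit 3.27% ± 0.312 and 5.96% ± 0.760. None of these 4 shares overlapped between the groups. A share also depends on the levels of the other genes, and the CPM of Flt3 itself overlapped between the groups and was not called. With the longest transcript of each gene as its length, Kit stood above Il6ra and Csf1r above Csf3r in new AML, and Kit above Csf3r in aggressive AML, so the order of genes that lie this close depends on the length used.

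Ratios of the counts of 2 genes within 1 library do not depend on how libraries are scaled. The pairs were chosen after the values were seen and are given as a description. The count of Kit over that of Csf1r was between 0.580 and 0.718 in the new AML libraries and between 3.08 and 3.43 in the aggressive AML libraries, and the mean ratio was 5.09 times as high. Kit over Csf3r was between 0.785 and 1.01 in new AML and between 1.88 and 2.85 in aggressive AML. Kit over Flt3 ran from 0.173 to 0.187 and from 0.194 to 0.289. These 3 ratios did not overlap. Csf1r over Csf3r was between 1.35 and 1.67 in new AML and between 0.573 and 0.906 in aggressive AML and did not overlap either. These counts are not divided by length, so a ratio above or below 1 does not rank the 2 genes. In contrast, the ratio of the GM-CSF alpha chain to the common beta chain, Csf2ra over Csf2rb, ran from 0.875 to 1.16 and from 0.832 to 1.02 and overlapped. Il3ra over Csf2rb, from 0.495 to 0.575 and from 0.499 to 0.644, and Il6ra over Csf3r, from 0.915 to 1.09 and from 0.899 to 1.25, overlapped as well.

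**Figure D4:**
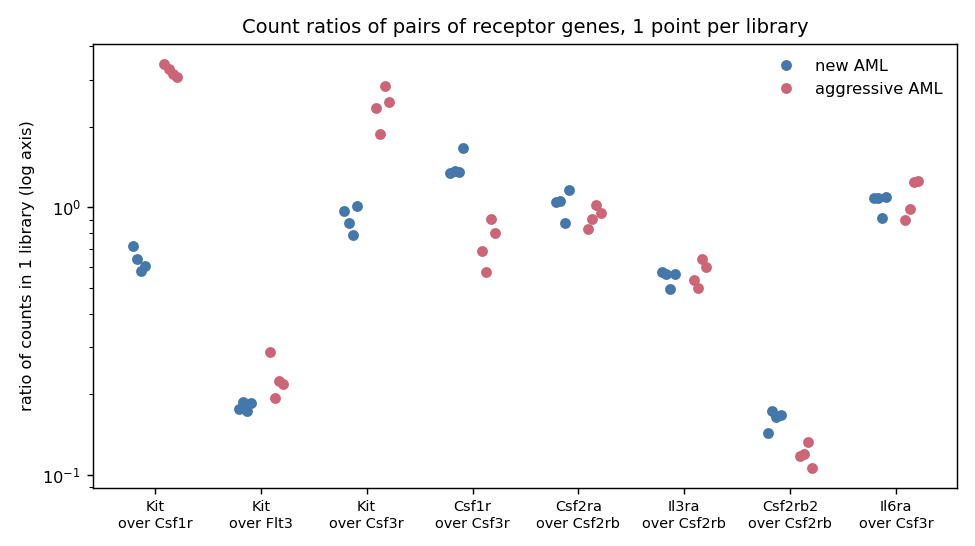
Ratio of the counts of 2 receptor genes within a library (y axis, log axis), 1 point per library, for 8 pairs. The ratio of Kit over Csf1r lies between 0.580 and 0.718 in new AML and between 3.08 and 3.43 in aggressive AML, while Csf2ra over Csf2rb, Il3ra over Csf2rb and Il6ra over Csf3r overlap between the groups.

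Single libraries were low or high for several of the 9 genes. New AML replicate 3 was the lowest of its group for 7 of them, all but Csf2rb and Csf2rb2, and new AML replicate 2 was the highest for 6. The summed level of 4 interferon-induced genes (from a list of 6 chosen after their values were seen) was 124.9 CPM in new AML replicate 3, between 50.9 and 79.6 CPM in the other new AML libraries and between 34.3 and 43.4 CPM in aggressive AML. Its part in the receptor values was not tested. In aggressive AML, replicate 1 was the lowest for 4 genes and replicate 4 the highest for 4. Without new AML replicate 3, Kit, Csf1r, Csf2ra, Csf2rb, Csf2rb2, Csf3r and Il6ra kept their calls and Il3ra joined them.

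The genes most like Kit and Csf1r across the 8 libraries were found by the Pearson correlation of log2(CPM + 1) among 9288 genes with a mean of at least 10 CPM. The points of each correlation fall into the 2 groups and share their libraries, so the values describe a pattern. Those closest to Csf1r were Camk1d, a calcium and calmodulin dependent kinase gene (r = 0.998, from 47.6 to 12.4 CPM), Ms4a4c (r = 0.997, from 32.7 to 8.46 CPM) and Itgax, which encodes the integrin CD11c of dendritic cells and macrophages (r = 0.994, from 40.2 to 10.7 CPM). Those closest to Kit were Myo18b, a myosin gene (r = 0.974, from 90.8 to 122.9 CPM), 4833420G17Rik (r = 0.966, from 94.7 to 109.5 CPM) and Pxylp1 (r = 0.965, from 83.5 to 112.9 CPM). Of these, 4833420G17Rik was not called (adjusted p = 0.0746, edgeR).

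Genes that mark the maturing cells on which CSF1R and CSF3R are found also moved. Of 9 tested monocyte genes, 5 fell and 0 rose, with a median log2 fold change of -0.93, and their summed level was between 3400 and 4116 CPM in new AML and between 3181 and 3404 CPM in aggressive AML. The 5 were Klf4, Irf8, Ccr2 (the chemokine receptor of classical monocytes, from 313.2 to 163.8 CPM), F13a1 (from 795.8 to 344.5 CPM) and Cx3cr1 (from 76.9 to 34.8 CPM). Ly6c2, the most abundant of the list, was at 1727.4 and 2067.2 CPM and was not called (adjusted p = 0.134). It was called as higher without new AML replicate 3 (adjusted p = 0.00226), with limma and array weights (0.0382) and with the replicate number as a block (0.0463). Of 12 tested neutrophil genes, 9 fell and 0 rose, with a median of -1.20 and a summed level between 395 and 579 CPM in new AML and between 219 and 287 CPM in aggressive AML. Among them were the secondary granule genes Ltf, for lactoferrin (from 31.0 to 3.68 CPM), and Camp, for cathelicidin (from 18.4 to 7.06 CPM). Of 5 tested macrophage genes 1 fell, Adgre1 for the F4/80 antigen (from 83.1 to 46.9 CPM), while C1qa, C1qb, Marco and Timd4 have no row in the table. The summed level of the macrophage genes was between 226 and 281 CPM in new AML and between 174 and 241 CPM in aggressive AML.

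The other lists of marker genes follow. Of 8 genes of granulocyte-monocyte progenitors, 3 rose and 0 fell: Ctsg, for cathepsin G (from 1407.3 to 2004.9 CPM), Elane and Cebpe. The call of Elane was lost without new AML replicate 1, 2 or 4 or aggressive AML replicate 1 (adjusted p from 0.0504 to 0.0712) and with DESeq2 (0.0540). The median of that list was 0.01 and its summed level ran from 8327 to 9227 CPM in new AML and from 7678 to 10845 CPM in aggressive AML. Of 5 tested mast cell and basophil genes, cells that depend on KIT or on interleukin-3, only the basophil protease gene Mcpt8 rose (from 27.9 to 77.8 CPM), and the summed level was between 141 and 181 CPM in new AML and between 203 and 223 CPM in aggressive AML. The mast cell genes Cma1, Tpsb2 and Mcpt4 have no row. Of 7 tested stem cell and multipotent progenitor genes, 1 rose (Meis1) and 3 fell (Ly6a, Hlf and Cd48). Ly6a went from 4.46 to 0.603 CPM, with new AML replicate 3 at 11.5 CPM and the other new AML libraries at 1.90 to 2.50 CPM. Its call held in 4 of 8 fits without 1 library, and in the rest it missed the filter on low values. Of 5 tested dendritic cell genes, which include Flt3 itself, 3 fell (Siglech, Itgax and Bst2), while Zbtb46, Xcr1, Clec9a and Batf3 have no row. Siglech went from 5.59 to 0.449 CPM, which lies near 3 counts per library. Its call held in 4 of 8 fits without 1 library, and in the rest it missed the filter on low values. Of 9 tested erythroid genes 3 fell (Car2, Slc4a1 and Hba-a1) and 0 rose, and the median of -1.02 lay below that of the monocyte genes. The summed level of the erythroid genes was between 141 and 226 CPM in new AML and between 121 and 154 CPM in aggressive AML. Among the few lymphoid genes with a row, Bcl11b and Nkg7 rose and Cd22 fell, and of the 2 eosinophil genes and the 1 megakaryocyte gene tested none was called. Without 1 library, the call of Bst2 held only where new AML replicate 2 was left out, with adjusted p-values up to 0.108. With all libraries kept, this call was lost with limma without (adjusted p = 0.0560) and with array weights (0.0808). In edgeR it was lost with upper-quartile scaling (0.0508) and with only genes of a mean of at least 10 CPM (0.0539). The part of these cell populations in the receptor values was not tested.

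Most genes of the growth factors themselves are not in the table, from which genes of low expression had been left out. Of 14 ligands of these and related receptors, only Lif, Csf1, Flt3l and Osm have a row, and none was called by edgeR, although the unadjusted p was under 0.05 for all 4. Csf1, which encodes the ligand of CSF1R, was at 8.79 and 6.07 CPM in new and aggressive AML (adjusted p = 0.126), and Flt3l, which encodes that of FLT3, at 10.6 and 7.87 CPM (adjusted p = 0.115). Osm, for oncostatin M, was at 14.3 and 20.4 CPM (adjusted p = 0.0772), and Lif at 2.27 and 1.01 CPM (adjusted p = 0.0824). Without new AML replicate 3, Flt3l (adjusted p = 0.0492) and Osm (0.0242) were called. Without aggressive AML replicate 3, Csf1 (0.0230) and Osm (0.0217) were. With limma and array weights 3 were called. Kitl, Il34, Csf2, Csf3, Il3 and Il6, which encode the ligands of most of the 9 receptors, have no row in the table.

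Of 31 partner chains and other growth factor or cytokine receptors, 19 were tested, 1 rose and 8 fell, with a median log2 fold change of -0.44. Igf1r, the insulin-like growth factor receptor gene and like Kit a receptor tyrosine kinase gene, rose from 61.5 ± 5.94 to 141.0 ± 16.5 CPM (SD, n = 4, log2 fold change 1.20, adjusted p = 1.19e-06). Lifr, whose protein pairs with gp130 to bind leukemia inhibitory factor, fell from 15.3 ± 3.76 to 2.94 ± 2.02 CPM (log2 fold change -2.36, adjusted p = 0.000303). Il1rl1, the interleukin-33 receptor gene, and Axl, a receptor tyrosine kinase gene, fell at low levels, from 1.81 to 0.631 and from 3.47 to 1.28 CPM. The call of Il1rl1 held in 2 of 8 fits without 1 library. It was lost without aggressive AML replicate 1 (adjusted p = 0.0580) or 2 (0.0501), and in the rest the gene missed the filter on low values. The call of Axl was lost without new AML replicate 4 (adjusted p = 0.0686) or aggressive AML replicate 2 (0.0520). Met, Il13ra1, Il21r and Il4ra fell as well, and Il6st is described above with Il6ra.

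Of 22 tested genes of JAK-STAT signalling, which carries the signal of the receptors without a kinase, 7 fell and 0 rose, with a median of -0.21. Jak2, the kinase that the beta chains use, was named after its values were seen and fell from 72.1 ± 6.09 to 53.7 ± 7.67 CPM (-0.43, adjusted p = 0.0114). Socs5, for a suppressor of cytokine signalling, fell from 13.5 ± 2.68 to 6.65 ± 2.28 CPM (-1.01, adjusted p = 0.00788) and Ptpn1, for a phosphatase that acts on JAK kinases, from 105.5 ± 6.57 to 75.3 ± 4.13 CPM (-0.49, adjusted p = 0.000682). Of 36 adaptors, lipid kinases and Src family kinases, 1 rose and 11 fell, with a median of -0.17. Sos2, which encodes an exchange factor for RAS, rose from 67.5 ± 4.67 to 95.0 ± 10.3 CPM (0.49, adjusted p = 0.00195). Pik3r5, which encodes a regulator of PI3-kinase gamma, fell from 26.4 ± 1.66 to 9.30 ± 2.23 CPM (-1.50, adjusted p = 1.54e-05). Fgr, a Src family kinase gene, went from 6.61 to 2.93 CPM and lost its call without new AML replicate 4 (adjusted p = 0.0546).

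Of 31 tested genes that cytokine signals are known to act on, 3 rose and 5 fell, with a median of -0.05. Over all genes tested, 8.15% rose and 10.2% fell. Those that rose were Spred2 (from 57.1 ± 6.83 to 75.5 ± 6.64 CPM, 0.40 on the log2 scale, adjusted p = 0.0122) and Spry2 (from 33.2 to 43.3 CPM), both of which encode inhibitors of RAS and ERK signalling, and Id1 (from 6.85 to 11.1 CPM). The call of Spry2 was lost without new AML replicate 3 (adjusted p = 0.0615) or 4 (0.0762) or aggressive AML replicate 1 (0.0727), and that of Id1 without new AML replicate 1 (0.0806), 2 (0.0711) or 4 (0.0546) or aggressive AML replicate 1 (0.0771) or 2 (0.0807). Those with the largest falls were Mmp9 (from 6.71 to 0.585 CPM) and Mmp8 (from 57.0 to 15.9 CPM), which encode proteases stored in neutrophil granules and are also on the neutrophil list, and Irf4 (from 2.68 to 0.464 CPM). The aggressive AML levels of Mmp9 and Irf4 lie near 3 counts per library, which were worth 0.345 to 0.384 CPM. Of the direct STAT5 targets Cish, Pim1 and Socs2, named after their values were seen, none was called. Pim1 was at 95.5 ± 24.4 and 63.8 ± 20.3 CPM (adjusted p = 0.0611). It was called without new AML replicate 4 (adjusted p = 0.0360) or aggressive AML replicate 2 (0.0213) and with the replicate number as a block (0.0122). Cish was at 3.39 and 1.81 CPM (adjusted p = 0.0912) and was called without new AML replicate 3 (0.0391) and with limma and array weights (0.0382). Socs2 was at 15.0 and 21.7 CPM (adjusted p = 0.0582). It was called without new AML replicate 1 (0.0243) or aggressive AML replicate 2 (0.0147) and with DESeq2 (0.0377).

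Of 18 tested transcription factor genes known to act on these receptor genes, 3 rose and 4 fell, with a median of -0.08. Runx1, whose protein acts on the Csf1r gene among others, fell from 202.5 ± 18.6 to 102.5 ± 13.5 CPM (SD, n = 4, log2 fold change -0.98, adjusted p = 9.17e-06). Irf8, a factor of monocyte fate, fell from 626.6 ± 33.2 to 431.9 ± 54.1 CPM (-0.54, adjusted p = 0.000657), and Klf4, another, from 18.5 ± 9.16 to 3.81 ± 1.32 CPM (-2.27, adjusted p = 0.000304). Cebpe, a factor of late granulocyte maturation, rose from 28.5 ± 7.94 to 61.0 ± 17.6 CPM (1.10, adjusted p = 0.00233), although its groups overlapped, and Meis1, a partner of HOXA9 in MLL leukemia, rose from 100.4 ± 3.63 to 137.7 ± 28.0 CPM (0.45, adjusted p = 0.0117). Ets2 went from 33.1 to 42.1 CPM and lost its call without new AML replicate 2 (adjusted p = 0.0904) or 4 (0.0864) or aggressive AML replicate 1 (0.0833) or 2 (0.0559). Spi1, named after its values were seen, encodes PU.1, the ETS factor on which the Csf1r, Csf3r and Csf2ra promoters depend in myeloid cells. It fell from 260.2 ± 5.46 to 218.6 ± 9.55 CPM (log2 fold change -0.25, adjusted p = 0.0159), a call that was lost without new AML replicate 2 (adjusted p = 0.0524).

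Of 11 tested genes of receptor shedding, folding and turnover, 1 fell and 0 rose, with a median of -0.14. Over all genes tested, 10.2% fell and 8.15% rose. This was Hsp90b1, which encodes a chaperone of the endoplasmic reticulum and went from 1399.6 ± 139 to 1170.2 ± 35.7 CPM (log2 fold change -0.26, adjusted p = 0.0286). Its call was lost without new AML replicate 1, 2 or 3 or aggressive AML replicate 1, 2 or 3, with adjusted p-values from 0.0503 to 0.0761. Adam17 and Adam10, whose proteases release several of these receptors from the cell surface, were at 165.5 and 157.5 CPM and at 235.5 and 243.8 CPM (adjusted p = 0.573 and 0.687), and both were named after their values were seen.

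**Figure D5:**
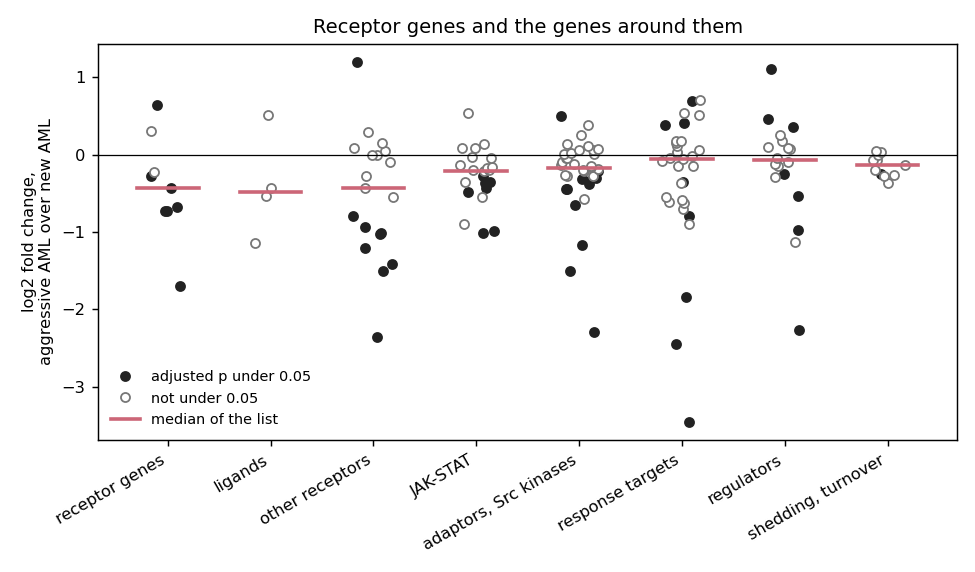
Log2 fold change (y axis, aggressive AML over new AML) of each tested gene of the 9 receptor genes and of 7 lists of genes around them (x axis), filled where the adjusted p is under 0.05, with a red line at the median of each list. The medians lie at -0.43 for the receptor genes, -0.44 for other receptors, -0.21 for JAK-STAT genes and -0.05 for response targets, and the lists share the y range from Mmp9 at -3.45 to Igf1r at 1.20.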

How the data were processed

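RNA was sequenced from 4 libraries of new AML and 4 of aggressive AML, grouped by the sample labels, which also number the replicates and record no batch. The authors purified polyadenylated RNA, sequenced it paired-end, aligned it to mm10 with HISAT2 and counted reads per gene with Rsubread; the annotation and strand setting are not given in the sources used here. The deposited table is named for CPM, yet holds whole numbers with unequal totals, and was used as raw counts. The study used a linear model in limma; the limma fits among the alternatives may differ from it in settings.

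Rows were tested where 4 or more libraries reached 1 CPM (12494 of 12823), by the quasi-likelihood test of edgeR 4.0.16 (R 4.3.3, TMM, group as the only term, two-sided, Benjamini-Hochberg adjustment over all genes tested, threshold 0.05). Genes past the threshold are called. The common biological coefficient of variation was 0.118. The test was also run on simulated counts in which far fewer genes were changed than were called here, equally in both directions. That run does not check the test under the conditions of these data. Replicates were no duplicates: they differed by more than sampling noise, with a chi-square per gene of 4.04 to 10.9 in 12 pairs. Alternatives were DESeq2 1.42.0, limma 3.58.1 on log2(CPM + 1) with and without array weights, other scalings and filters, a replicate block and leaving out each library. Exon lengths, positions and overlaps came from GENCODE M21 and promoters from RefSeq, both of the mm10 build.

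The 9 receptor genes and all lists were chosen with earlier results of these data known. All 9 are named. From each list the called genes with the largest changes, up to 3 in each direction and at 1 CPM or more on average in one group, are named, and for Kit and Csf1r the 3 genes most like each. Marker genes are named with their lists, and other names were chosen after their values were seen. Some genes that the rule selects are not named or reported one by one here.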

Additional observations from a re-analysis of the deposited data

Results flagged for a closer look

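Over 66 named genes and both groups, 132 sets of 4 libraries were searched with Dixon's test for a library far from the other 3, and 7 were found, where chance flags about 1 set in 20. Among the receptor genes this was Kit, at 138.9 CPM in aggressive AML replicate 2 against 172.6 to 174.6 CPM in the other aggressive AML libraries. The transcription factor gene Cebpe was at 34.9 CPM in aggressive AML replicate 3 against 66.7 to 72.2 CPM, and the monocyte gene Ly6c2 at 2175.4 CPM in that library against 2019.2 to 2043.0 CPM. In new AML, Jak2 was at 81.3 CPM in replicate 4 against 68.7 to 69.4 CPM, and Socs2 at 19.8 CPM in replicate 1 against 13.1 to 13.9 CPM. New AML replicate 3 was apart for the ligand gene Flt3l, at 8.03 CPM against 11.3 to 11.6 CPM, and for the stem cell antigen gene Ly6a, at 11.5 CPM against 1.90 to 2.50 CPM.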

How the results depend on the processing

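No alternative reversed the direction of a receptor gene or of the 57 other named genes that were refitted; the remaining named genes were not. Of 1097 refits of single genes, 1030 kept the side of the threshold, 41 lost a call and 26 gained one. The number of receptor genes called as higher, 1 in the report, was 2 with DESeq2, 2 with limma and array weights, and between 1 and 2 when 1 library was left out; the added gene was Flt3. Leaving out 1 library gave between 1466 and 2324 called genes in all, the lowest without new AML replicate 2. With array weights, 3 ligands, 11 JAK-STAT genes, 14 response targets and 3 genes of shedding and turnover were called, and 3248 genes in all. With only genes of a mean of at least 10 CPM, fewer genes could be tested, and 5 other receptors and 5 response targets were called. Leaving out 1 library gave 0 to 2 ligands and 0 to 2 shedding and turnover genes.

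With the replicate number as a block, 7 receptor genes were again called, 1 higher and 6 lower, and 2367 genes in all. Among the other refitted genes, the block changed only the calls of Pim1 (-0.60, adjusted p = 0.0122 by edgeR) and Ly6c2 (0.28, adjusted p = 0.0463), both gained. The numbers share no stated mouse or day: deviations from the group means of libraries with the same number correlated at -0.07 to 0.20 over genes, those with other numbers at -0.18 to 0.15, and not every library correlated best with its own number. Depth limits low genes such as Irf4 and Il1rl1, while 95% intervals of the receptor genes reflect the spread of 4 libraries.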
